A study of Mus musculus with 3 samples.

Results

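The 10 genes described here are targets and regulators of the Nrf2-Keap1 response to oxidative stress: Hmox1, Gclc, Gclm, Nqo1, Txnrd1, Slc7a11, Srxn1, Sqstm1, G6pdx and Keap1. They were taken by name, as known members of the pathway, from 21938 protein-coding genes of GENCODE mouse release 21. All 10 were found in it, and every DNase I site within 50 kb of their gene bodies was counted. Around them lay 399 of the 304049 peaks of biological replicate 1 and 161 of the 106591 peaks of biological replicate 2. The cells were MEL, an immortalised mouse erythroleukaemia line whose cells resemble red cell precursors. All 3 libraries came from cells kept for 24 hours in zinc dichloride at a dose of 125, whose unit prefix cannot be read in the labels. There was 1 group and no untreated cells were analysed here, so the values describe zinc-treated MEL cells and hold no test of zinc. Biological replicate 1 is 1 peak list from 2 libraries together, and biological replicate 2 is 1 list from 1 library.

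DNase-seq records where the nuclease DNase I cuts chromatin readily, which it does at active promoters, enhancers and insulators. The transcription factor Nrf2, encoded by Nfe2l2, drives genes that make glutathione, reduce thioredoxin, supply NADPH and break down haem. In unstressed cells Keap1 holds Nrf2 and hands it to a ubiquitin ligase, and oxidants or metals that modify Keap1 release it. Nrf2 pairs with a small Maf protein and binds the antioxidant response element (ARE). Bach1 pairs with the same Maf proteins, occupies the same elements and represses them until haem removes it. NF-E2, the erythroid relative of Nrf2, binds a longer form of the sequence, which makes these elements of interest in red cell precursors. Hmox1 is the textbook case, with a pair of upstream enhancers, called E1 and E2, that carry clustered AREs.

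The sequences below carry the motifs that the results turn on. They were read from GRCm38.p6 (mm10) 5′ to 3′ in the direction of the gene, within peaks of the deposited lists unless stated, and trimmed to leave out exons. For the Hmox1 enhancers, the Hmox1 site between them and the promoters of Gclm, Txnrd1 and Sqstm1, capitals mark the ARE core TGACNNNGC on either strand. Where it is part of the NF-E2 and Bach form (TGC followed directly by TGANTCA), as in E1 and Sqstm1, that whole form is in capitals. In the Srxn1 promoter capitals mark the AP-1 core TGANTCA. In the Nqo1 promoter they mark the longer ARE form, which is TGA, any 4 letters and then GCA, and so does not ask for the C of the core. In the Slc7a11 promoter they mark the C/EBP and ATF response element TGATGNAA. These motifs overlap: the NF-E2 and Bach form TGCTGAGTCA contains an ARE core and an AP-1 core. A match is a run of letters and does not show that a factor was bound.
Hmox1 E1 (chr8:75089576-75089825, + strand): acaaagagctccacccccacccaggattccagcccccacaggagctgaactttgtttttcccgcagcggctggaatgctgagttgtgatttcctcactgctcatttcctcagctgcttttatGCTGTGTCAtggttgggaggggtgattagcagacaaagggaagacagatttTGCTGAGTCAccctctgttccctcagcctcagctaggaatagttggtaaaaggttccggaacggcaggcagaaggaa
Hmox1 E2 (chr8:75083956-75084105, + strand): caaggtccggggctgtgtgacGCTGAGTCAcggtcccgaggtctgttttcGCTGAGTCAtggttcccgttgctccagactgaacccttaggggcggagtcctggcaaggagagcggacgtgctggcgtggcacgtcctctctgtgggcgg
Hmox1 between E2 and E1 (chr8:75086236-75086385, + strand): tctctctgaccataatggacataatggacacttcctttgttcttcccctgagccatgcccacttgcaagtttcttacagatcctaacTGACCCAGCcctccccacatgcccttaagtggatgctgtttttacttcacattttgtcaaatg
Gclm promoter (chr3:122245376-122245525, + strand): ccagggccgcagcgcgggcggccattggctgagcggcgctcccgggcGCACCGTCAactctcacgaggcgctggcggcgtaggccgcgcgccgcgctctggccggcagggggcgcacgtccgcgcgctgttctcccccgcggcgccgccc
Txnrd1 promoter (chr10:82859036-82859178, + strand): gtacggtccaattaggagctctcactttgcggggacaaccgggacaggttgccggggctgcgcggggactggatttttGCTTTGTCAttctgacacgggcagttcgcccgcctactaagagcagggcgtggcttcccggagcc
Srxn1 promoter (chr2:152105416-152105515, + strand): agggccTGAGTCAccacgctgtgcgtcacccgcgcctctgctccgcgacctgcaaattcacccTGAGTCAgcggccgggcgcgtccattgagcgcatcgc
Sqstm1 promoter (chr11:50211031-50211165, - strand): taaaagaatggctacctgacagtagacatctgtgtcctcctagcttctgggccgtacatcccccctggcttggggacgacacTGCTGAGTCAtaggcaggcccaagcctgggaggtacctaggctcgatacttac
Nqo1 promoter (chr8:107403516-107403665, - strand): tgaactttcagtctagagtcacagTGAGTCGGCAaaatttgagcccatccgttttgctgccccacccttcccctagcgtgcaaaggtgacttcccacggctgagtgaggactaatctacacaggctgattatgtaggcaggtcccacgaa
Slc7a11 promoter (chr3:50443615-50443764, - strand, from the RefSeq promoter window): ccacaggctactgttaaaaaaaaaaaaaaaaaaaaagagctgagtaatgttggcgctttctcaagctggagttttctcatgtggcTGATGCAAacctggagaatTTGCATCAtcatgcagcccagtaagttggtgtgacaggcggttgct

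In E1 the ARE cores begin 3923 and 3871 bp upstream of the Hmox1 start, and the second of them lies in an NF-E2 and Bach form. E2 holds the same 9 letters, GCTGAGTCA, at 9644 and 9615 bp upstream. The Sqstm1 match, TGCTGAGTCA, begins 256 bp upstream of the gene's start and repeats the NF-E2 and Bach form of E1 letter for letter. The Gclm core, GCACCGTCA, begins 134 bp upstream. In Srxn1 the AP-1 cores begin 94 and 37 bp upstream, and in Slc7a11 the C/EBP and ATF elements begin 65 and 46 bp upstream on opposite strands. The Nqo1 match, TGAGTCGGCA, begins 435 bp upstream.

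Each deposited peak is 150 bp wide and carries a whole-number score of the authors' own, whose meaning is not stated in the sources used here. It was used only to rank peaks, or genes by their best promoter peak, within a list. Where a score or density is said to stand above a share, that share is its percentile rank, with ties at their mean rank. The share strictly below it is therefore smaller where values are tied. The median score was 62 in replicate 1 and 30 in replicate 2, so a score of 51 is low in the one and high in the other. Each hotspot, a wider stretch rich in cuts, carries the −log10 of a q value. The highest value, 100, is called the ceiling here, and 55.6% of hotspots reached it in replicate 1 and 17.1% in replicate 2. How the value of 100 was assigned is not stated in the sources used here. Its distance from lower values is therefore not a measured difference in strength. No read counts come with the lists. The depth is therefore unknown, there is no error on a single score, and a site open in few cells cannot be told apart from one weakly open in all. Promoters of erythroid marker genes were called for 8 of 8 in replicate 1 and for 6 of 8 in replicate 2, where Alas2 and Slc4a1 had none. Among markers of other cells, replicates 1 and 2 had promoter peaks at 3 and 0 of 4 myeloid genes. They had them at 1 and 1 of 3 T cell and 1 and 1 of 3 B cell genes. For liver it was 1 and 1 of 2, Alb in replicate 1 and Apoa1 in replicate 2. For fibroblasts it was 3 and 2 of 3, and for endothelium 2 and 2 of 2. Over all protein-coding genes the shares with a promoter peak were 63.6% and 49%. A promoter peak in these lists is therefore no sign by itself that a gene belongs to the cell type.

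The promoters of all 10 genes were accessible in replicate 1, and those of 8 in replicate 2. A promoter peak is one that comes within 1000 bp of a transcript start annotated for the gene. Over all protein-coding genes the share with such a peak was 63.6% in replicate 1, 49% in replicate 2 and 48.9% in both. The genes without one in replicate 2 were Hmox1 and Gclm, which also had no promoter hotspot there. No test was made, because each replicate is 1 list.

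**Figure D1:**
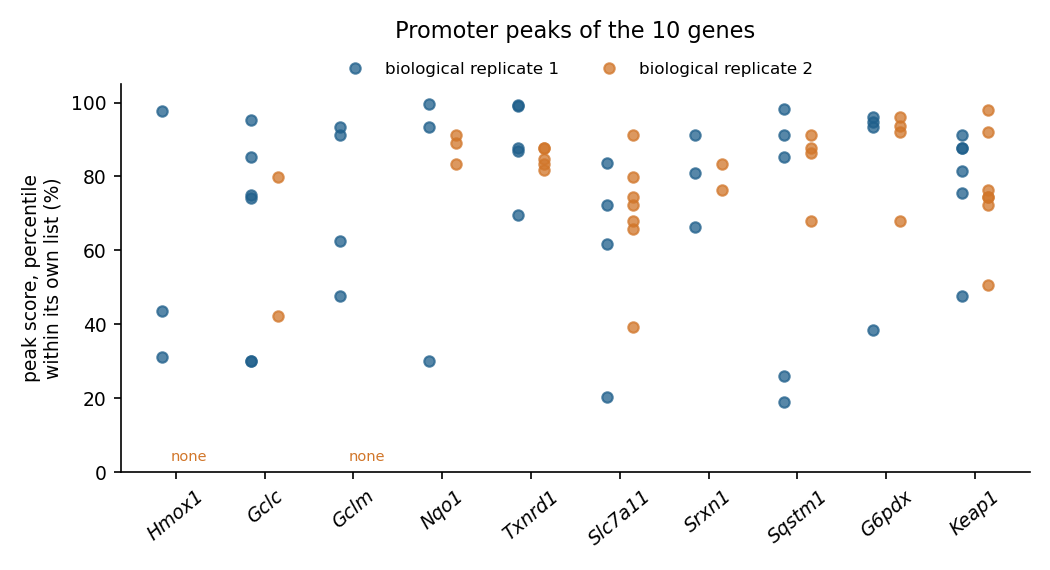
Each point is 1 promoter peak of the gene on the horizontal axis, and the vertical axis is the percentile of its score within its own list (biological replicate 1 blue, biological replicate 2 orange). Hmox1 and Gclm have promoter peaks in replicate 1 alone, while the highest replicate 2 promoter peaks belong to Keap1 and G6pdx.

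Keap1 is the sensor that targets Nrf2 for degradation. Its gene (ENSMUSG00000003308.15, chr9:21229730-21239361, - strand) had 6 promoter peaks in replicate 1, with scores of 60, 119, 107, 126, 119 and 97. In replicate 2 it had 7, with scores of 52, 63, 40, 39, 41, 40 and 30. The best of these, 63, was the highest promoter score of the 10 genes in that replicate and stood above 91.5% of all genes with a promoter peak. It lay 522 bp from the nearest annotated start. In replicate 1 the best score of 126 ranked lower, above 34.5% of such genes. Its promoter hotspot was 3268 bp wide in replicate 1 and 978 bp in replicate 2.

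Sqstm1 encodes p62, the autophagy receptor that binds Keap1 and draws it away from Nrf2, and is itself an Nrf2 target. The gene (ENSMUSG00000015837.15, chr11:50199366-50210827, - strand) shares its promoter with Mgat4b, which is transcribed the other way, so peaks there cannot be assigned to either gene. Replicate 1 had 4 peaks at this shared promoter, with scores of 143, 126, 114 and 41, and a further peak with a score of 36 near a start inside Sqstm1. Replicate 2 had 4 at the shared promoter, with scores of 37, 48, 47 and 51. The highest in replicate 2 (chr11:50210956-50211105) holds the NF-E2 and Bach form printed above, as does the overlapping peak of replicate 1 with a score of 114. That form was present in a promoter peak of 0.702% of all genes in replicate 1 and 0.319% in replicate 2, and of the 10 genes only Sqstm1 had it, in each replicate. The promoter hotspot, 1803 bp wide in replicate 1 and 1488 bp in replicate 2, sat at the ceiling of −log10 q in both.

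Gclc and Gclm encode the catalytic and the modifier subunit of glutamate-cysteine ligase, the limiting enzyme of glutathione synthesis, and they differed between the lists. Gclc (ENSMUSG00000032350.9, chr9:77754535-77794485, + strand) had 6 promoter peaks in replicate 1, with scores from 44 to 135, the highest 4 bp from the start. The peak scoring 96 lay 9.30 kb inside the gene, near another annotated start. In replicate 2 Gclc had 2, with scores of 27 and 43, which lay 416 and 716 bp inside the gene. No replicate 2 peak lay on the start itself. Gclm (ENSMUSG00000028124.15, chr3:122245557-122270732, + strand) had 4 in replicate 1, with scores of 60, 126, 131 and 78, inside a hotspot of 3291 bp. It had none in replicate 2. Gclm also had the highest CpG content of the 10 genes in the 1000 bp around its start (observed over expected 1.02, above 98.7% of all genes), against a median of 0.660 over the 10 genes and 0.553 over all genes.

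Slc7a11 is the cystine importer that supplies glutathione synthesis. Its gene (ENSMUSG00000027737.10, chr3:49892526-50443614, - strand) spans 551089 bp. In replicate 1 it had 4 promoter peaks, with scores of 37, 77, 92 and 111. The peak scoring 37 lay 72.2 kb inside the gene, near another annotated start. The best, 111, stood above only 23.3% of genes with a promoter peak, the lowest rank of the 10. In replicate 2 Slc7a11 had 7, with scores of 37, 36, 39, 51, 43, 40 and 26, and the best stood above 66.0% of such genes. The peak over the start in replicate 2 (chr3:50443536-50443685, score 43) holds both C/EBP and ATF elements printed above. The nearest replicate 1 peak, 94 bp from the nearest start, holds neither.

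Txnrd1, thioredoxin reductase, and Srxn1, sulfiredoxin, restore oxidised thioredoxin and peroxiredoxins. Txnrd1 (ENSMUSG00000020250.10, chr10:82833951-82897712, + strand) had no promoter peak at its most upstream annotated start in either replicate. Its promoter peaks clustered about the starts inside the gene. The best-scoring of replicate 1 lay 25.2 kb downstream of the upstream end, and those of replicate 2 at 24.7 and 25.6 kb. Replicate 1 had 5 promoter peaks, with scores of 117, 146, 88, 119 and 145, and replicate 2 had 5, with scores of 48, 45, 48, 44 and 46. The peak chr10:82859036-82859185 was called at identical positions in both lists and holds the ARE core printed above. Counting the 5′ end of the gene alone would leave out Txnrd1, giving 9 of 10 genes in replicate 1 (57% of all genes) and 7 in replicate 2 (43.7%). Srxn1 (ENSMUSG00000032802.8, chr2:152105516-152111376, + strand) had 3 promoter peaks in replicate 1, with scores of 106, 126 and 83. In replicate 2 it had 2, with scores of 41 and 45, within hotspots of at most 136 bp and a −log10 q of at most 1.54. Of the 8 genes with a replicate 2 promoter hotspot, Srxn1 had the weakest.

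Nqo1 reduces quinones with NADPH, and G6pdx, glucose-6-phosphate dehydrogenase, makes that NADPH. Nqo1 (ENSMUSG00000003849.8, chr8:107388225-107403206, - strand) had the highest promoter score of the 10 genes in replicate 1. Its 3 peaks there scored 148, 131 and 44, and the best stood above 94.6% of genes with a promoter peak. In replicate 2 its 3 peaks scored 45, 49 and 51. The longer ARE form printed above lies in the peak scoring 131 in replicate 1 and in the peak scoring 51 in replicate 2. G6pdx (ENSMUSG00000031400.10, chrX:74409483-74429194, - strand) overlaps Ikbkg and shares its promoter, so these peaks belong to either. Its 4 peaks in replicate 1 scored 51, 134, 131 and 137, and its 4 in replicate 2 scored 54, 58, 52 and 37. Sqstm1 and G6pdx were the only ones of the 8 genes whose promoter hotspot reached the ceiling of −log10 q in replicate 2. For the other 6 it lay between 1.54 and 5.22.

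Hmox1, haem oxygenase 1, degrades haem to biliverdin, iron and carbon monoxide. The gene (ENSMUSG00000005413.8, chr8:75093621-75100589, + strand) had 3 promoter peaks in replicate 1, with scores of 141, 56 and 45. The peak scoring 45 lay 2.57 kb inside the gene, near another annotated start. The highest (chr8:75093536-75093685) lay over the start and stood above 68.0% of genes with a promoter peak. Replicate 2 had no promoter peak for Hmox1, and its nearest peaks to the start were 3.97 kb upstream and 15.0 kb downstream. Among all genes with a replicate 1 promoter score of at least 141, 3.71% (175 of 4716) likewise had a promoter peak in replicate 1 alone. For Gclm the same share, over genes scoring at least 131, was 5.44% (449 of 8260). Over all genes with a replicate 1 promoter peak it was 23.1%. When the list of replicate 1 was limited to its 106591 highest scores, the length of the replicate 2 list, all 10 genes still had a promoter peak (54.6% of all genes). Read depth is unknown, and its part in these missing peaks was not tested.

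The upstream enhancers of Hmox1 were accessible, E1 in both replicates and E2 in replicate 1 alone. E1 was looked for from 3000 to 5000 bp upstream and E2 from 9000 to 11000 bp upstream. In replicate 1 the E1 window held 2 peaks, with scores of 100 at 4.49 kb and 123 at 3.87 kb upstream, in a hotspot of 1351 bp at the ceiling. The replicate 2 window held 1 peak (chr8:75089576-75089725) with a score of 40, above 74.4% of its list, in a hotspot of 218 bp with a −log10 q of 2.19. This was the only upstream distal peak of Hmox1 in replicate 2, and it holds the first of the E1 cores. In replicate 1 the E2 window held 4 peaks, with scores of 44, 41, 49 and 134. The last (chr8:75083956-75084105, above 94.7% of its list) was the highest-scoring distal peak of Hmox1 and holds both E2 cores, in a hotspot of 1486 bp at the ceiling. In replicate 2 that window held no peak and no hotspot.

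The accessible stretch upstream of Hmox1 in replicate 1 was not limited to E1 and E2. A peak at 7.31 kb upstream, between them, scored 127 and holds the ARE core TGACCCAGC. A group of 4 peaks from 11.3 to 12.0 kb upstream, with scores of 115, 102, 91 and 100, shared a hotspot of 1278 bp. Further out, the intron of Tom1 held a peak scoring 130 at 25.9 kb. In all, Hmox1 had 21 upstream distal peaks in replicate 1 and 1 in replicate 2. The promoter of the downstream neighbour Mcm5, by contrast, had a peak in both, with scores of 146 and 50.

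**Figure D2:**
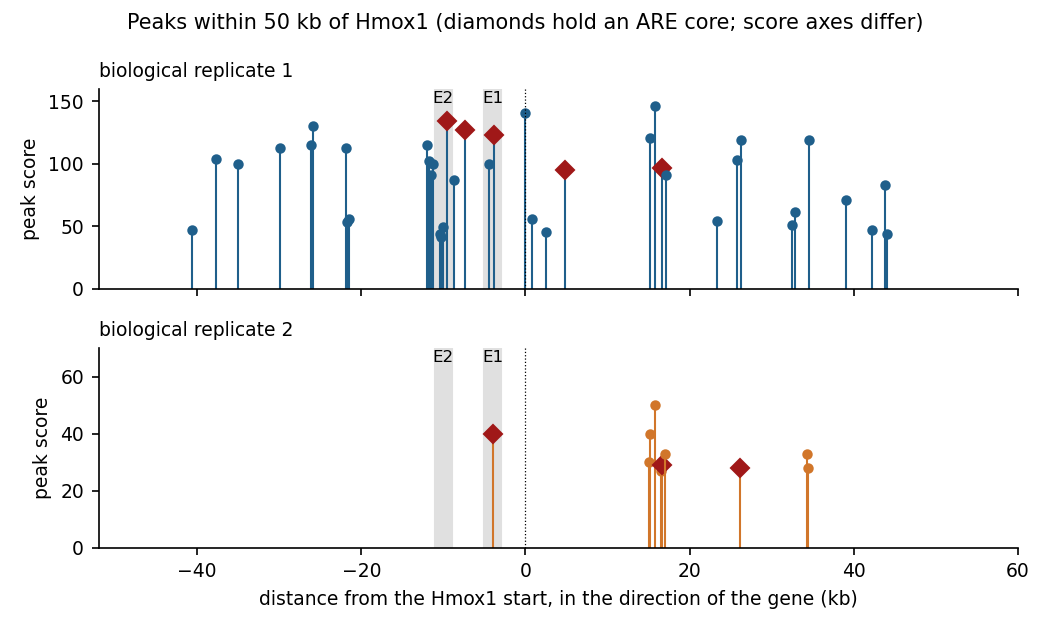
Peaks around Hmox1 by distance from its start in kb (horizontal) and deposited score (vertical, on a different scale for each replicate), with the E1 and E2 windows in grey and peaks that hold an ARE core as diamonds. The replicate 1 peaks at E2, between the enhancers and at E1 (scores 134, 127 and 123) hold a core, and the lone upstream peak of replicate 2 (score 40) lies in E1.

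Gclm lay in a long stretch with no replicate 2 peak. The stretch, chr3:122191386-122290915, was 99.5 kb long and held 27 replicate 1 peaks, with a median score of 60 and a highest of 142. The starts of Gclm and of Dnttip2, whose promoter scored 142 in replicate 1, both lie in it. The nearest replicate 2 peaks to the Gclm start were 54.2 kb upstream and 45.4 kb downstream. Stretches at least that long without a replicate 2 peak held the starts of 5016 genes (22.9%). Among genes with a replicate 1 promoter score of at least 131 they held 134 of 8260 (1.62%). The absence was therefore not limited to the Gclm promoter itself. Replicate 2 peaks resumed downstream at chr3:122290916-122291065, with a score of 46, where replicate 1 had a peak scoring 142 in an exon of Gm17494.

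**Figure D3:**
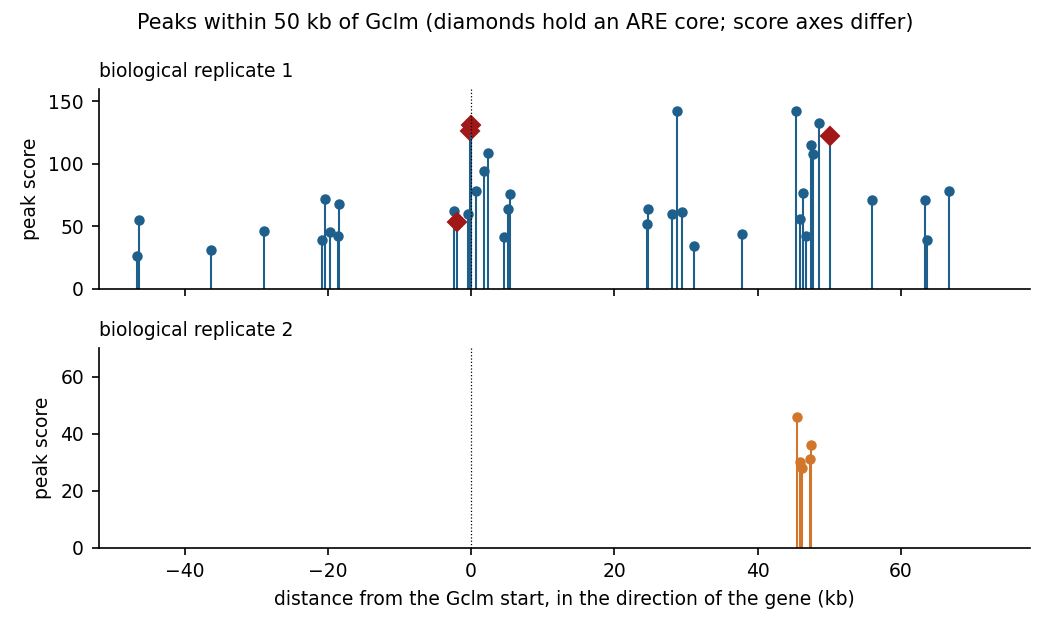
Peaks around Gclm by distance from its start in kb (horizontal) and deposited score (vertical, scales differ), with peaks that hold an ARE core as diamonds. Replicate 1 has 2 such peaks at the promoter (scores 126 and 131), and the first replicate 2 peak lies 45.4 kb downstream.

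Distal peaks, over 1000 bp from any start of a protein-coding gene, were counted in the gene body and 50 kb on either side. The 10 genes had 294 in replicate 1, a median of 30.5 per gene against 20 over all genes. In replicate 2 they had 80, a median of 6.5 against 5. Since long genes have long windows, the density per 100 kb of window was also taken: a median of 19.7 per 100 kb against 15.6 in replicate 1, and of 3.87 against 3.78 in replicate 2. The replicate 2 density depended on the setting. It was 2.90 against 1.29 with the highest-scoring 50% of peaks and 6.66 against 4.64 with distal set at over 500 bp. Within 20 kb it was 4.59 against 3.19. It fell below that of all genes at over 2000 bp (2.27 against 2.94) and within 100 kb (4.04 against 4.14). An upstream distal peak was present for 10 of 10 genes in replicate 1 (89.3% of all genes) and for 7 of 10 in replicate 2 (67.3%), so neither count is far from that of genes at large. Gclm, Slc7a11 and Srxn1 had none in replicate 2. Of the 294, 118 lay upstream, 73 in the gene body and 103 downstream, and of the 80, 32, 19 and 29. By annotation, 47.3% of the replicate 1 distal peaks were intronic, 43.9% intergenic and 8.84% exonic, and in replicate 2 the shares were 40%, 47.5% and 12.5%.

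The 10 genes varied widely in this density. Gclc was the most densely surrounded in each replicate, with 37.9 distal peaks per 100 kb in replicate 1 (above 98.4% of genes) and 10.7 in replicate 2 (above 91.2%). Txnrd1 had 26.3 and 10.4 (above 88.2% and 90.3%), and Keap1 29.2 and 7.30 (above 92.9% and 77.7%). Hmox1 ranked high in replicate 1 alone, with 29.9 per 100 kb (above 93.7%) against 3.74 in replicate 2 (above 49.4%). At the low end, Slc7a11 had 6.91 and 2.15, Nqo1 11.3 and 2.61, G6pdx 11.7 and 3.34, and Srxn1 14.2 and 1.89. The Slc7a11 values are over a window of 651 kb, the longest of the 10. Most of its distal peaks lay in the 5′ part of that window, so its low density does not hold for the whole locus. Gclm had 23.2 and 3.99, and Sqstm1 16.1 and 7.18.

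**Figure D4:**
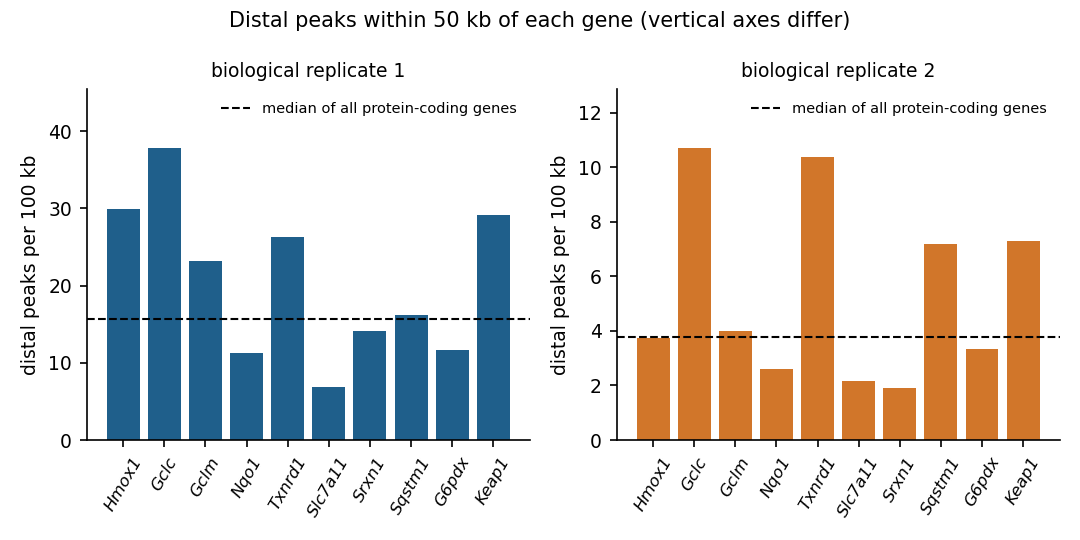
Bars give the distal peaks per 100 kb of window for each gene in biological replicate 1 (left) and replicate 2 (right, on a smaller scale), and the dashed line is the median of all protein-coding genes (15.6 and 3.78). Gclc stands highest in both panels, and Hmox1 lies well above the line in replicate 1 and at it in replicate 2.

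In replicate 2 the highest-scoring distal sites were those of Keap1 and G6pdx. At Keap1, 18.6 kb downstream of the start in intergenic sequence, chr9:21220676-21220825 scored 146 in replicate 1. In replicate 2 a peak 18.4 kb downstream (chr9:21220916-21221065) scored 88, above 99.8% of that list and higher than any promoter of the 10 genes. The peaks do not overlap but lie in hotspots of 2377 and 1828 bp. A second Keap1 site 2.19 kb upstream (chr9:21241476-21241625) was called at identical positions in both lists, with scores of 143 and 73. Inside introns of G6pdx and Ikbkg, chrX:74426316-74426465 scored 136 in replicate 1. In replicate 2 a pair of peaks flanked it, chrX:74426136-74426285 with a score of 79 (above 99.6% of the list) and chrX:74426556-74426705 with a score of 58. The replicate 2 hotspot there, 1885 bp wide, sat at the ceiling. The replicate 1 hotspot, 2305 bp wide, also holds promoter peaks of Ikbkg on either side of the distal peak, scoring 116 and 125.

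Other distal sites were found in both lists too. For Txnrd1, chr10:82796856-82797005, 37.0 kb upstream, scored 142 in replicate 1. The overlapping replicate 2 peak, shifted by 20 bp, scored 62 (above 97.7% of the list). Gclc had a peak 3.88 kb upstream scoring 136, with replicate 2 peaks at 4.02 and 3.34 kb scoring 51 and 52. Within the first part of Slc7a11, the intronic peak chr3:50406896-50407045 scored 131 and 41. For Nqo1, a peak in an intron of Wwp2 34.7 kb upstream scored 111, and the overlapping replicate 2 peak 33. In each list this site shares a hotspot with promoter peaks of Wwp2. The peak 8.36 kb upstream of Nqo1 scored 87 and 31. For Sqstm1, a peak in an intron of Mgat4b 18.5 kb upstream scored 111, overlapped by one of 35. Srxn1 had its best distal score, 115, 19.9 kb upstream in an intron of Scrt2, in replicate 1 alone. Several of these sites lie inside neighbouring genes, and the lists do not say which gene a site acts on.

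Sites near the 10 genes were shared between lists about as often as sites elsewhere. Of the 161 replicate 2 peaks, 114 (70.8%, 95% Wilson interval 63.4 to 77.3%) overlapped a replicate 1 peak by at least 1 bp, against 70.6% of all replicate 2 peaks. All 161 touched a replicate 1 hotspot, against 97.7% of all. In the other direction, 105 of 399 replicate 1 peaks (26.3%, 22.2 to 30.8%) overlapped a replicate 2 peak, against 23.6% of all. By position, the share of replicate 1 peaks also found in replicate 2 was 48.8% (21 of 43) at the promoters of the 10 genes, 45.2% (28 of 62) at promoters of neighbours and 19.0% (56 of 294, 15.0 to 23.9%) at distal sites. Over the whole list these shares were 41.9% of promoter peaks, within the interval of 34.6 to 63.2% for the 10 genes, and 20.4% of distal peaks. Intervals cover counting error only, and peaks of 1 locus are not independent.

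ARE cores were found in a larger share of the promoter peaks of the 10 genes than of promoter peaks in general. Among their distal peaks the share was near the general one, slightly above it in replicate 1 and slightly below it in replicate 2. In replicate 1, 7 of 43 promoter peaks held TGACNNNGC (16.3%, 8.12 to 30.0%), against 7.02% of all promoter peaks. In replicate 2 it was 5 of 34 (14.7%, 6.45 to 30.1%), against 6.26%, a share that lies just below the interval. Of distal peaks, 19 of 294 held it in replicate 1 (6.46% against 5.99%) and 4 of 80 in replicate 2 (5% against 5.54%). With the longer form the promoter shares were 23.3% (10 of 43) against 6.95% in replicate 1 and 14.7% (5 of 34) against 6.37% in replicate 2. The distal share of the longer form was 12.9% against 8.71% in replicate 1 and 5% against 8.24% in replicate 2, so the replicates differ in direction. The 10 genes are known for their AREs, so a high promoter share is no independent result about them.

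**Figure D5:**
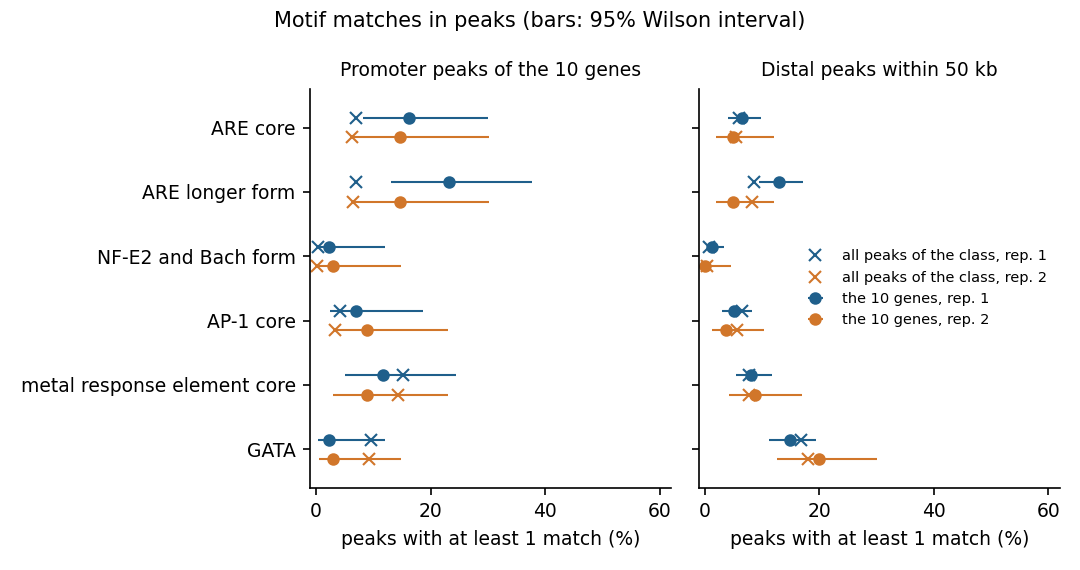
Share of peaks with at least 1 match, in percent, for 6 motifs at the promoters of the 10 genes (left) and at distal peaks within 50 kb (right), with 95% Wilson intervals as lines and the share of all peaks of that class as crosses. At promoters the ARE core stands at 16.3 and 14.7% against 7.02 and 6.26%, and at distal peaks the longer form lies above its cross in replicate 1 (12.9 against 8.71%) and below it in replicate 2 (5 against 8.24%).

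By gene, an ARE core lay in a promoter peak of 6 of 10 in replicate 1 (Gclm, Txnrd1, Srxn1, Sqstm1, G6pdx and Keap1) against 13.7% of all genes, and of 5 of 10 in replicate 2 (Txnrd1, Slc7a11, Srxn1, Sqstm1 and G6pdx) against 8.97%. The 10 genes also have promoter peaks more often than genes at large, which these shares include. An upstream distal peak with a core was present for 7 of 10 in replicate 1 (34.6% of all genes) and, in replicate 2, for Hmox1 and Txnrd1, 2 of 10 (12.1%). Upstream distal peaks were also more numerous for the 10 genes, which these shares include. Their median number was 11.5 against 7 over all genes in replicate 1 and 1.5 against 1 in replicate 2. A peak with at least 2 cores was rare: 3 of 294 distal replicate 1 peaks, against 0.254% of all. These were E1 and E2 of Hmox1 and a Keap1 peak 15.1 kb downstream with a score of 58. In replicate 2 it was 0 of 80 distal peaks, against 0.207% of all. The NF-E2 and Bach form lay in an upstream distal peak of Hmox1 and Gclc in replicate 1, 2 of 10 genes (5.5% of all genes), and of none in replicate 2 (1.08%).

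The AP-1 core was in 5.01% of all replicate 1 peaks near the 10 genes, against 6.24% of the list. In replicate 2 it was in 4.97% against 4.98%. Its share at the promoters of the 10 genes lay above the general one. It was 6.98% (3 of 43, interval 2.40 to 18.6%) against 4.18% in replicate 1. The replicate 2 share was 8.82% (3 of 34, 3.05 to 23.0%) against 3.24%. The core of the metal response element (TGCACNC or TGCGCNC) is the sequence read by the zinc sensor Mtf1. It was in 9.02% of all replicate 1 peaks near the 10 genes, against 8.89% of the list. The replicate 2 values were 8.70% against 9.64%. At the promoters of the 10 genes it was in 11.6% (5 of 43, interval 5.07 to 24.5%) against 15.1% of all promoter peaks in replicate 1, and in 8.82% (3 of 34, 3.05 to 23.0%) against 14.4% in replicate 2. The GATA motif (A or T followed by GATAA), the site of the erythroid factor Gata1, was in 15.0% of distal peaks against 16.8% in replicate 1 and in 20% against 18.0% in replicate 2. At the promoters of the 10 genes it was in 1 of 43 peaks (2.33%, 0.412 to 12.1%) against 9.57% in replicate 1 and in 1 of 34 (2.94%, 0.521 to 14.9%) against 9.19% in replicate 2. For the metal response element and GATA the promoter shares were below the general ones. The promoter shares of all these motifs rest on few peaks, and each general share lies within the interval.

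The RefSeq promoter windows (GRCm38.p6, from 250 bp before to 50 bp after a start) covered 8 of the 10 genes with 10 windows. Those of Hmox1 and Gclc were not matched. The ARE core was present in 4 of these 10 windows, against 12.4% of all 32851 windows. The windows with it were those of Gclm, Txnrd1, Srxn1 and G6pdx, 4 of 8 genes. The C/EBP and ATF element TGATGNAA, present in 3.97% of windows, was found in that of Slc7a11. The AP-1 core, in 7.81% of windows, was found in that of Srxn1, and the metal response element core, in 25.7%, in those of Gclm, Srxn1 and G6pdx.

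In a list of 37 further genes of the pathway, peaks were called at 37 of 37 promoters in replicate 1 and at 33 of 37 in replicate 2, beside the 63.6% and 49% of all genes. Those with none in replicate 2 were Mafg, a small Maf partner of Nrf2, the glutathione transferase gene Gsta4, and the exporters Abcc1 and Abcc4. Of the 8 regulators, replicate 1 called the promoters of 8 and replicate 2 those of 7. Among them Bach1, the repressor of AREs, had the highest replicate 2 score of the class, 67, after 134 in replicate 1. The 8 genes of glutathione and thioredoxin metabolism, the 5 of NADPH supply, the 4 of haem and iron and the 3 of superoxide and peroxide removal all had promoter peaks in both replicates. The top replicate 2 scores of these classes were those of Glrx (145 and 61), Idh1 (146 and 61), Blvra (148 and 59) and Cat (145 and 49). Detoxification and export was the class with the most missing, 6 of 9 genes in replicate 2 against 9 of 9 in replicate 1, with Gstm1 (147 and 51) at its top. The 37 genes were taken as known members of the pathway, and these counts are a description.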

How the data were processed

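DNase-seq peaks and hotspots of zinc-treated MEL cells were used as the authors deposited them, aligned to mm10 per the labels. For the aligner, peak caller and filters, names and settings were not given in the sources used here. The whole-series lists were read as biological replicate 1 (2 libraries), per the deposited text records, and the lists of the remaining library as biological replicate 2. The peak score in the deposited lists is the authors' own, and the hotspot value is a −log10 q value as deposited. No read depth is given.

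Genes came from GENCODE mouse release 21. Peaks were assigned to promoters (within 1000 bp of an annotated start of a protein-coding gene) or called distal. Shares carry 95% Wilson intervals. Motifs were searched on both strands of GRCm38.p6. Nothing was tested, since each replicate is 1 list and all samples form 1 group. Counts stand beside the same share over all genes or peaks. Scripts (Python 3.11.15, pandas 2.3.3, scipy 1.17.1, pysam 0.24.0) were tested on simulated data. All 10 genes are named, and from 37 other pathway genes the best replicate 2 promoter score of each class. Genes without a peak there were named after their values were seen. The members and lists were chosen with earlier results of these data known. Alternatives covered window sizes, score filters, overlap and motif form.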

Additional observations from a re-analysis of the deposited data

How the results depend on the processing

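Counts of genes with a promoter peak stayed within 1.5 times of 10 in replicate 1 and 8 in replicate 2 under each alternative run (window, annotated starts, score filter, hotspots). Leaving out a replicate gave 8 to 10 genes for the count in both. Over all results, 25 of 44 alternative values stayed close and 19 moved.

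Counts of distal peaks followed the window and the filter. In replicate 1 the sum of 294 became 166 with the highest-scoring 50% of peaks, 115 with as many peaks as replicate 2, 485 within 100 kb and 178 within 20 kb. The median of 30.5 became 18, 10.5 and, within 20 kb, 14.5. In replicate 2 the sum of 80 became 44, 128 within 100 kb and 49 within 20 kb. Its median of 6.5 became 3 with distal set at over 2000 bp, 10 at over 500 bp, 4 with the highest-scoring 50%, 12 within 100 kb and 4 within 20 kb. These changes follow from the smaller or larger set of peaks counted. At over 2000 bp the replicate 2 median of 3 lay below the 4 of all genes, the reverse of 6.5 against 5. Where each peak had to cover 50% of the other, 48.4% of replicate 2 peaks were shared, not 70.8%, beside 50.8% of all. Peaks with an ARE core, 32 in replicate 1, became 56 with the longer form and 19 among distal peaks, and the 11 of replicate 2 became 4 among distal peaks.

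No paired analysis was possible because all samples form 1 group. With no read counts, a peak missing from the shorter replicate 2 list cannot be read as a closed site.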
